A study of Mus musculus with 6 samples.

Results

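This account covers 10 genes of the NRF2 pathway and of heme and oxidative stress, chosen by name with earlier results of these data known. They are Nfe2l2, Keap1, Hmox1, Nqo1, Gclc, Gclm, Srxn1, Txnrd1, Gsr and Gsta4. Each was read from 1 probe set annotated to that symbol alone, taking the brightest by mean signal where a gene had several, and all 10 of the 10 were among the 22180 genes measured. RNA came from MC3T3-E1 cells, an established line of pre-osteoblasts from mouse calvaria, kept for 14 days in osteogenic medium, made with β-glycerophosphate at 10 mM and ascorbic acid at 50 µg/ml. In 3 samples the medium also held NU7441 at 1 µM, which blocks the catalytic subunit of the DNA-dependent protein kinase (DNA-PKcs), and in 3 it held the vehicle DMSO. The study concerns the phosphorylation of alphaNAC by that kinase in osteoblast formation. No label says whether replicates were separate cultures, so every p below rests on the variation among these samples, and part or all of it may be technical.

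NRF2, encoded by Nfe2l2, is a transcription factor that is held low in unstressed cells because KEAP1 hands it to a ubiquitin ligase for destruction. Electrophiles and oxidants modify KEAP1, NRF2 accumulates, pairs with a small MAF protein and binds antioxidant response elements of genes for glutathione and thioredoxin chemistry, quinone reduction and heme breakdown. BACH1 occupies the same elements as a repressor, most prominently at Hmox1, and leaves them when heme binds it. In osteoblasts this pathway is known for buffering the oxidants made during differentiation.

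The cells carried most of the transcripts their label predicts. Of 8 osteoblast markers, 6 lay above the upper quartile of every array and 0 lay below the median of every array. The exceptions to the 6 were Phex, below the upper quartile in DMSO 1 and DMSO 2, and Bglap. Bglap lay below the upper quartile of every array and, at 6.36, below the median of DMSO 1 (6.415). Macrophages are a rich source of Hmox1, and of 8 macrophage markers 0 lay above the upper quartile of every array and 4 lay below the median of every array. Their summed log2 signal ran from 49.5 to 50.6 in DMSO and from 49.4 to 49.7 in NU7441. Of the 8, 6 had a lower mean with NU7441, and Cd68 and Cd14, named after their values were seen, were lower in all 3 numbered pairs. Cd68, a lysosomal protein of macrophages, was at 8.13, 8.11 and 7.53 in DMSO and at 7.92, 7.71 and 7.45 in NU7441, a difference of -0.23 (SE 0.19). Cd14, a co-receptor for lipopolysaccharide, averaged 7.03 with DMSO and 6.81 with NU7441. It differed by -0.22 (SE 0.16), and its pairs by -0.15, -0.45 and -0.06. Neither was called, and the part of these markers in the Hmox1 difference was not tested. None of 6 endothelial, 5 adipocyte, 5 chondrocyte and 5 skeletal muscle markers lay above the upper quartile of every array, nor did the 2 erythroid markers that were measured of 5 listed. Of the chondrocyte markers 4 of 5 were higher with NU7441, with a median difference of 0.06. The brightest of them, Col2a1, named after its values were seen, lay above the upper quartile in DMSO 3 and in every NU7441 array. It differed by 0.28 (SE 0.14), and its groups overlapped. The dim marker Matn1, also named after its values were seen, averaged 4.99 in DMSO and 5.22 in NU7441. Its groups lay apart, with a difference of 0.23 (SE 0.08). Of the adipocyte markers 2 of 5 were lower with NU7441, with a median difference of 0.08. One of them, Fabp4, a fatty acid binding protein that was also named after its values were seen, was at 5.65, 6.23 and 5.72 in DMSO and at 4.57, 5.04 and 5.00 in NU7441. These are dim signals, below the array medians in DMSO and below the lower quartile of each NU7441 array (5.14 to 5.16). The groups of Fabp4 lay apart and its highest value was in DMSO 2, with a difference of -0.99 (SE 0.19, adjusted p = 0.598 in limma), while the other 4 adipocyte markers overlapped, at -0.10 to 0.13. The part of Fabp4 in the differences of the 10 genes was not tested. Array medians lay between 6.38 and 6.42 (log2). All signals here are log2, differences are NU7441 minus DMSO with limma's moderated standard error (SE), and n = 3 in each group.

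All 10 genes had a lower mean with NU7441, and none of them passed the test. The differences ran from -0.02 for Srxn1 to -0.67 for Hmox1, with a median of -0.13, while 48.7% of all genes were lower and the median of all genes was 0.0036. As the genes were chosen with earlier results known, their shared direction is a description and not an independent test. At an adjusted p under 0.05 limma called 0 of the 10 and 0% of all genes. At an unadjusted p under 0.05 there were 2, Hmox1 and Nfe2l2, where the share over all genes was 6.79%. The 95% interval of the difference excluded a 2-fold change in signal for 9 of the 10, all but Hmox1, and for 99.2% of all genes. In bulk samples fewer cells of a kind and less RNA per cell cannot be told apart.

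Of single arrays, the count of 10 leaned most on 1. DMSO 2 held the highest of the 6 values for 9 of the 10 genes, all but Gsr, where 23.4% of all genes peaked in that array. Without DMSO 2, 7 of the 10 were lower and the median difference was -0.02. Leaving out any other single array kept at least 8 of the 10 lower, with medians between -0.21 and -0.11. Leaving out DMSO 2 alone keeps NU7441 2, the highest NU7441 array for 8 of the 10. Without both arrays numbered 2, a subset chosen after seeing the data, Keap1 and Srxn1 were higher, at 0.0061 and 0.057. The others were lower, from -0.043 for Nqo1 to -0.56 for Hmox1.

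**Figure D1:**
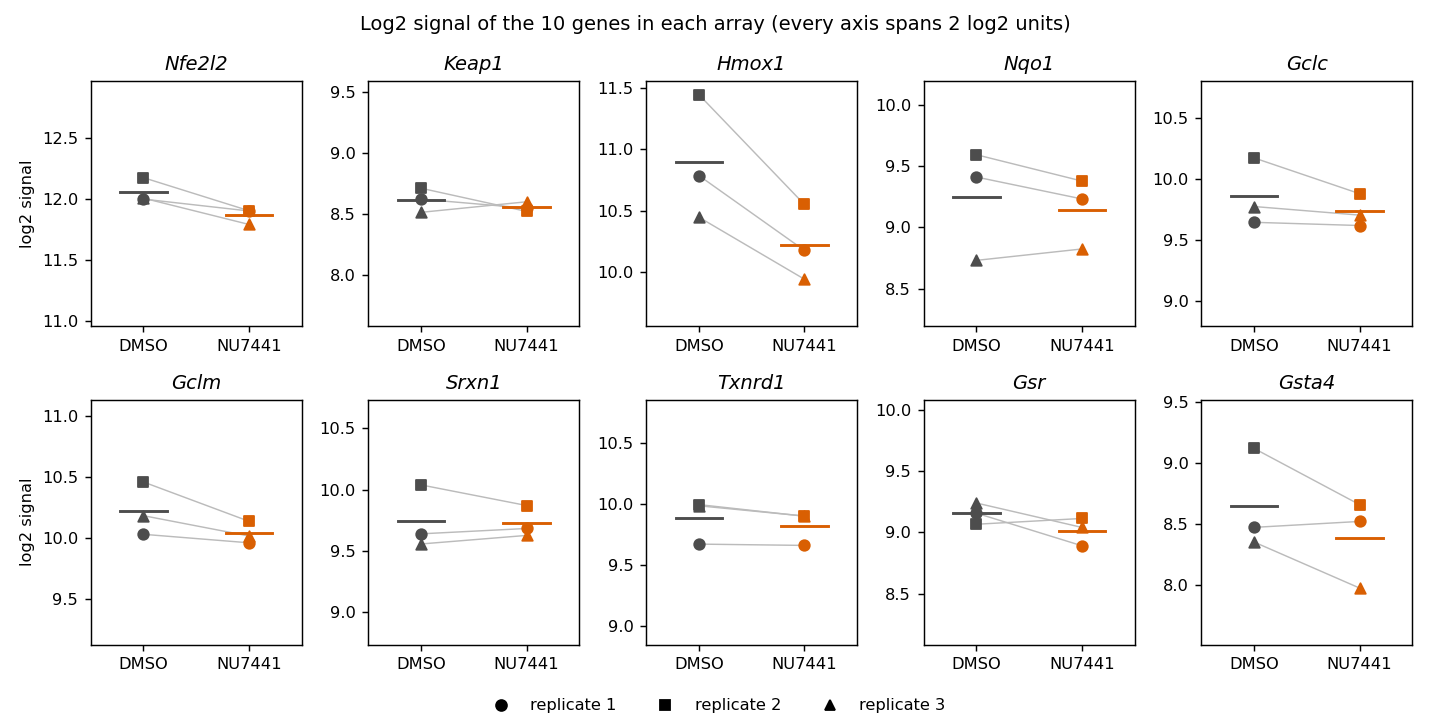
Log2 signal (vertical axis, 2 log2 units in every panel) of the 10 genes in DMSO and NU7441. Each point is 1 array, with the marker giving its replicate number, grey lines joining same-numbered arrays and bars at the group means. Hmox1 is lower in each numbered pair, and DMSO 2 is the highest point in 9 of the 10 panels.

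The arrays of a number tended to go together in these genes. Among the NU7441 arrays, number 2 held the highest value for 8 of the 10, as it did for 32.7% of all genes. For 7 of the 10, both number 2 arrays were the highest of their group, which was so for 14.1% of all genes. Over all genes the deviations from the group means correlated at 0.149, 0.169 and 0.339 between arrays of the same number. Between arrays of different numbers the correlations lay between -0.246 and 0.094. Same-numbered arrays were therefore also treated as pairs, as an alternative to the test without pairs. The labels state no pairing. It was read from these same values, so the smaller errors it gives are not independent support. Deviations from a group mean cancel within the group. Positive correlations at the same number therefore force the others down on balance, and the contrast is not separate evidence of pairs. Within pairs, 5 of the 10 genes were lower in all 3 pairs (Nfe2l2, Hmox1, Gclc, Gclm and Txnrd1), against 16.6% of all genes. The median difference of the 10 was -0.07 in the pair numbered 1, -0.24 in pair 2 and -0.13 in pair 3.

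Hmox1 encodes heme oxygenase 1, which opens the heme ring to give biliverdin, carbon monoxide and free iron. Its signal was 10.79, 11.45 and 10.45 in DMSO 1 to 3. With NU7441 it was 10.18, 10.55 and 9.94. The groups overlapped, because NU7441 2 lay above DMSO 3, yet every NU7441 array lay below the DMSO array of its own number. The means were 10.89 ± 0.51 in DMSO and 10.22 ± 0.31 in NU7441 (SD), a difference of -0.67 (SE 0.26, 95% interval -1.29 to -0.05), or a 1.59-fold lower signal. Limma gave an adjusted p of 0.719 over all genes, so this difference did not pass. Its absolute difference stood at the percentile 99.8 of all genes.

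Taking same-numbered arrays as pairs narrowed the error of Hmox1 and left its difference as it was. The within-pair differences were -0.61, -0.90 and -0.51, and the SE went from 0.26 without pairs to 0.09 with them, for a 95% interval of -0.92 to -0.43. The paired adjusted p from limma was 0.367, again not past the threshold, in a fit that called 0% of all genes. With pairs, an intensity trend of the variance and a robust prior together, Hmox1 was called lower at an adjusted p of 0.0157 from limma. That setting called 0.451% of all genes, 100 in number, 0.275% being lower, and 1 of the 10 genes here. Its call for Hmox1 held without both arrays numbered 2 (difference -0.56, adjusted p = 0.00244 in limma) and without both numbered 3 (-0.75, adjusted p = 0.0114). It was lost without both numbered 1 (-0.70, adjusted p = 0.0663 in limma). These subsets were chosen after seeing the data. They keep so few arrays that their errors rest largely on the variance prior. Without number 2 the fit called 155 genes, more than the 100 with all arrays, so a call that held there is not added support. In the test without pairs, the Hmox1 difference was -0.39 without DMSO 2 and -0.90 without DMSO 3.

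**Figure D2:**
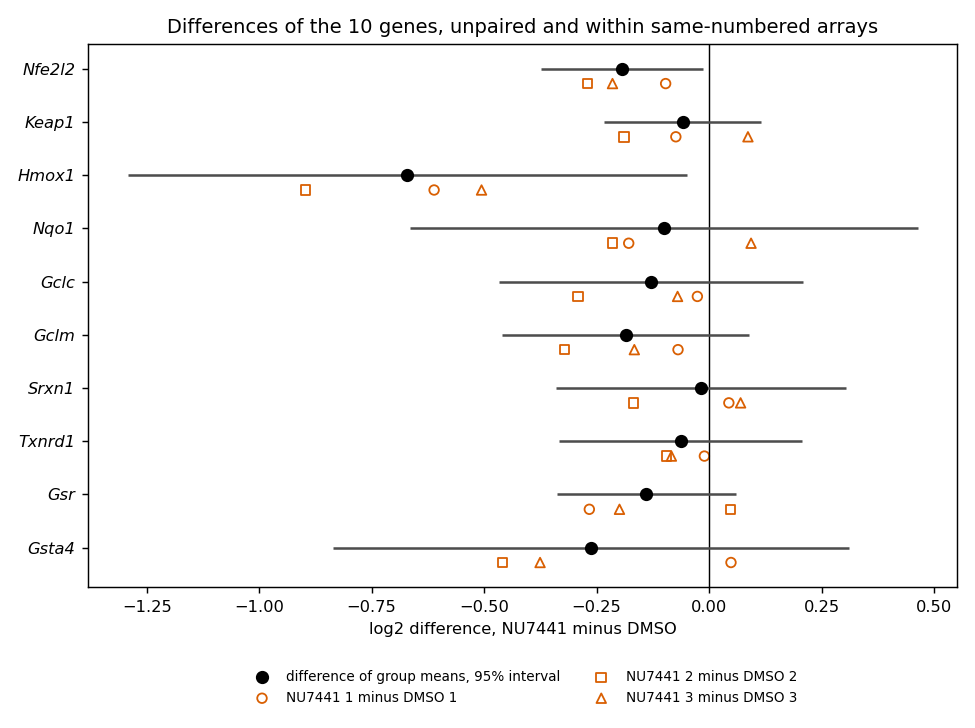
Log2 difference, NU7441 minus DMSO (horizontal axis), for each of the 10 genes. Black points are differences of group means with 95% intervals from limma without pairs, and open symbols are the 3 within-pair differences. The Hmox1 interval reaches from -1.29 to -0.05, and its 3 pairs lie between -0.90 and -0.51.

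Of the pathway's regulators, Nfe2l2 showed the separation that Hmox1 lacked. NRF2 transcript signal was 12.00, 12.17 and 12.01 in DMSO and 11.90, 11.90 and 11.79 in NU7441. The 3 NU7441 values all lay below the 3 DMSO values, the sole gene of the 10 for which the groups lay apart, where 12.8% of all genes did so in either direction and 6.64% with NU7441 lower. The difference was small, -0.19 (SE 0.08, 95% interval -0.37 to -0.01), a 1.14-fold lower signal, and its adjusted p was 0.721 in limma. With pairs the SE was 0.07 and the adjusted p 0.510, and with pairs, trend and robust prior the adjusted p was 0.144. NRF2 activity is set mostly by the stability and location of the protein, which arrays do not measure.

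Keap1 encodes the adaptor that senses oxidants and marks NRF2 for degradation. Its signal was 8.62, 8.71 and 8.51 in DMSO and 8.55, 8.52 and 8.60 in NU7441. The groups overlapped fully, with a difference of -0.06 (SE 0.07, 95% interval -0.23 to 0.11). It was -0.012 without DMSO 2 and -0.11 without DMSO 3. The other single-symbol probe set of Keap1, of lower signal, differed by -0.05 (SE 0.10).

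To show where an antioxidant response element core could be read beside these genes' starts, RefSeq promoter windows (GRCm38.p6, 250 bases before to 50 after a start) were searched on both strands for TGACNNNGC. The table held 6 of the 10 genes, Nfe2l2, Keap1, Nqo1, Gclm, Srxn1 and Txnrd1, in 8 windows. The letters occurred in 4 of these 8 windows, which belong to 4 genes, and in 12.4% of all 32851 windows. Each is printed with flanks of 10 bases, 5′ to 3′ on the gene's strand, with the match in capitals.
Nfe2l2 (chr2:75704885-75704913, minus strand): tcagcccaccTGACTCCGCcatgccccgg
Gclm (chr3:122245413-122245441, plus strand): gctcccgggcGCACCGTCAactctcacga
Txnrd1 (chr10:82859104-82859132, plus strand): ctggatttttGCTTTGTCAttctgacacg
Srxn1 (chr2:152105542-152105570, plus strand): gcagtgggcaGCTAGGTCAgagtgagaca
The Nfe2l2 match reads forward and begins 240 bases before the start. The other 3 read on the opposite strand, as TGACGGTGC in Gclm, TGACAAAGC in Txnrd1 and TGACCTAGC in Srxn1. They begin 134 bases before the start in Gclm, 92 before it in Txnrd1 and at base 29 of the transcript in Srxn1. The AP-1 motif TGANTCA, whose letters can overlap the element's, was found in 7.81% of all windows and, among these genes, at 2 places in Srxn1. They begin 102 and 45 bases before its start and are shown as the only AP-1 letters in the windows of these 6 genes.
Srxn1 (chr2:152105412-152105438, plus strand): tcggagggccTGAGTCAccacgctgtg
Srxn1 (chr2:152105469-152105495, plus strand): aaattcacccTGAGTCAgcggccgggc
Distances count from each window's own start, which is the gene's outermost annotated start in 5 of the 8 windows, but not in that of Gclm nor in the Txnrd1 window printed here. A match is a description of letters and not a bound site.

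In glutathione synthesis the 2 subunit genes of 1 enzyme followed each other across arrays. Gclc encodes the catalytic subunit of glutamate-cysteine ligase, the rate-limiting enzyme of glutathione synthesis. Its signal was 9.65, 10.17 and 9.78 in DMSO and 9.62, 9.88 and 9.71 in NU7441. The difference was -0.13 (SE 0.14), and the groups overlapped. All 3 pairs were lower with NU7441, by -0.03, -0.29 and -0.07. Without DMSO 2 but with NU7441 2 kept, the difference was 0.02, and without both arrays numbered 2 it was -0.048.

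Gclm, the regulatory subunit that raises the ligase's activity, has the element core printed above. It was at 10.03, 10.46 and 10.18 in DMSO and at 9.96, 10.14 and 10.02 in NU7441. Each NU7441 array was below its numbered partner, by -0.07, -0.32 and -0.17, but NU7441 2 lay above DMSO 1. The difference was -0.19 (SE 0.12, 95% interval -0.46 to 0.09), limma giving 0.814 for the adjusted p, or 0.541 with pairs. Without DMSO 2 it was -0.069 and without DMSO 1 it was -0.28. The 2 subunits had the same order of numbers within each group, 2 above 3 above 1, and their signals correlated at r = 0.96 over the 6 arrays, a description of arrays that share their scale.

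Gsr encodes glutathione reductase, which uses NADPH to return oxidised glutathione to its reduced form. It was at 9.16, 9.07 and 9.24 in DMSO and at 8.89, 9.11 and 9.04 in NU7441. It departed from the other genes in that DMSO 2 was the lowest DMSO array. The difference was -0.14 (SE 0.08, 95% interval -0.34 to 0.06), and the pair numbered 2 went the other way at 0.05. Without NU7441 1 the difference was -0.077.

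Gsta4 encodes a glutathione S-transferase known for clearing the lipid peroxidation product 4-hydroxynonenal. Its values in DMSO were 8.47, 9.12 and 8.35. In NU7441 they were 8.52, 8.66 and 7.98. The difference of -0.26 (SE 0.24, 95% interval -0.84 to 0.31) was the next in size after Hmox1 among the 10, with the extremes in DMSO 2 and NU7441 3, and it was -0.03 without DMSO 2, -0.058 without NU7441 3 and -0.41 without DMSO 3. Glutathione S-transferases share sequence, so a probe set may read related transcripts, which was not tested.

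Of the thioredoxin arm, neither gene differed by as much as its SE. Txnrd1 encodes cytosolic thioredoxin reductase, a selenoenzyme that keeps thioredoxin reduced. It was at 9.67, 10.00 and 9.99 in DMSO and at 9.66, 9.90 and 9.90 in NU7441. The arrays numbered 1 were the low ones of both groups, and the difference was -0.06 (SE 0.11, 95% interval -0.33 to 0.21). It was -0.17 without DMSO 1, -0.0076 without DMSO 2, -0.012 without DMSO 3, 0.017 without NU7441 1 and -0.10 without NU7441 2 or NU7441 3.

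Srxn1 encodes sulfiredoxin, which repairs over-oxidised peroxiredoxins. It was at 9.64, 10.04 and 9.56 in DMSO and at 9.68, 9.87 and 9.63 in NU7441. The groups overlapped, pairs 1 and 3 were higher with NU7441 by 0.04 and 0.07, and pair 2 was lower at -0.17. The difference of -0.02 (SE 0.14, 95% interval -0.34 to 0.30) turned to 0.13 without DMSO 2 and to 0.0083 with quantile normalization.

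Nqo1 encodes the quinone reductase most often used as a readout of NRF2. It was at 9.41, 9.59 and 8.73 in DMSO and at 9.23, 9.38 and 8.82 in NU7441. The spread followed the replicate number, with number 3 the low array of both groups, and the difference was -0.10 (SE 0.24, 95% interval -0.66 to 0.46). It was 0.07 without DMSO 2 and 0.06 without NU7441 3. With pairs the SE was 0.09 and the pair differences were -0.18, -0.22 and 0.09.

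The spread of the 10 genes was uneven between groups. The SD was larger in DMSO than in NU7441 for 9 of the 10, again all but Gsr, where 58.1% of all genes had the larger SD in DMSO. Against each gene's mean over the 6 arrays, the median of the 10 was 0.31 in DMSO 2, 0.04 in NU7441 2 and between -0.12 and -0.0039 in the other 4 arrays.

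Other gene lists also departed in these arrays. On the same scale, 12 genes of the ATF4 stress response had medians of -0.41, 0.61 and 0.37 in DMSO 1 to 3. Their medians were -0.27, -0.12 and -0.19 in NU7441 1 to 3, so the low arrays were DMSO 1 and the 3 with NU7441. The median of 8 osteoblast markers was -0.67, -0.52 and 0.23 in DMSO 1 to 3 and -0.05, 0.10 and 0.75 in NU7441 1 to 3. All 8 of these markers had a higher mean with NU7441, with a median difference of 0.54, which was 0.34 without NU7441 3 and 0.87 without DMSO 3. The part of either list in the differences of the 10 genes was not tested.

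**Figure D3:**
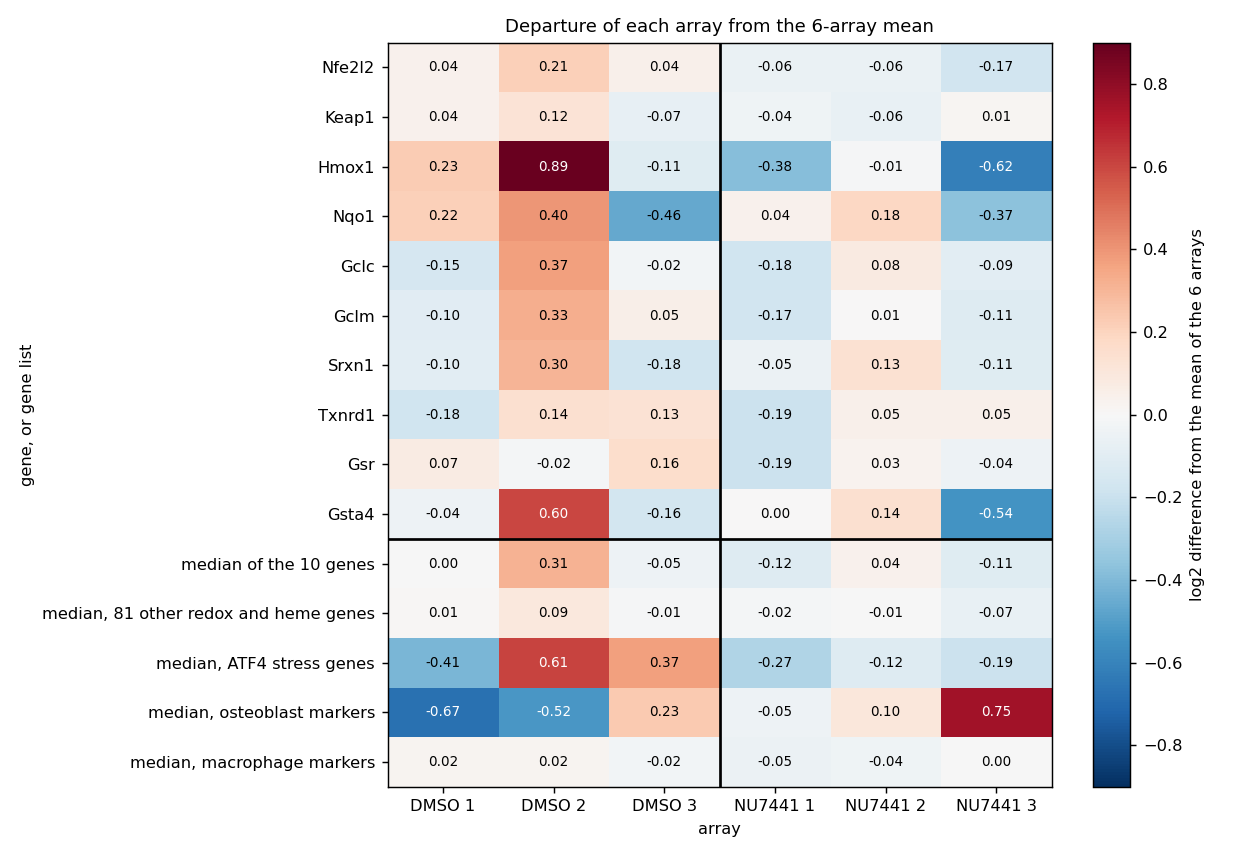
Departure of each array (columns) from the 6-array mean, in log2, for the 10 genes (rows above the line) and as the median of other gene lists (rows below it), with red for higher and blue for lower. DMSO 2 stands out in red for Hmox1, Gsta4, Nqo1 and Gclc, and the ATF4 stress genes have their highest median, 0.61, in the same array.

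Around the 10 genes, 93 other genes of NRF2 control, glutathione, thioredoxin, NADPH, quinone and heme chemistry were listed by function, and 81 of them had a single-symbol probe set. None was called (limma, adjusted over all genes). Of the 81, 55 were lower and 26 higher with NU7441, with a median difference of -0.06. At an unadjusted p under 0.05 there were 7 lower and 1 higher, together 9.88%, where 3.3% of all genes were lower and 3.49% higher at that p. The groups lay apart for 12 of the 81 with NU7441 lower and for 1 with it higher. The 12 were Mafg, Bach1, Cul3, Gss, Abcc1, Glrx3, Gsto1, Pgd, Me1, Sod2, Nqo2 and Akr1b8. Over all genes the groups lay apart for 12.8% in either direction and for 6.64% with NU7441 lower. Without DMSO 2, 47 of the 81 were lower and the median was -0.02, without DMSO 3, 62 were lower with -0.09, and without NU7441 3, 53 with -0.04.

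Partners and regulators of NRF2 included the only gene of the 81 that was higher at an unadjusted p under 0.05. Bach2, a relative of the heme-regulated repressor BACH1, was at 7.57, 7.60 and 7.47 in DMSO and at 7.83, 7.83 and 7.72 in NU7441. All 3 NU7441 values lay above all 3 DMSO values, with a difference of 0.25 (SE 0.07, unadjusted p = 0.00970 in limma). The other 7 of the 8 measured were lower. Mafg, a small MAF partner of NRF2, was at 8.71, 8.73 and 8.71 in DMSO and at 8.56, 8.56 and 8.54 in NU7441. Its groups lay apart by a small step, -0.16 (SE 0.06). Bach1 itself lay apart too, at -0.13 (SE 0.07).

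In glutathione supply and breakdown, 6 of 7 genes were lower. Abcc1, which exports glutathione conjugates, differed by -0.20 (SE 0.07) and Gss, glutathione synthetase, by -0.17 (SE 0.07), both with the groups apart. Slc7a11, the cystine importer that feeds glutathione synthesis and is a target of both NRF2 and ATF4, had the widest spread of the list. It was at 5.50, 7.92 and 7.40 in DMSO and at 5.84, 6.29 and 5.79 in NU7441. The values in DMSO 1 and in every NU7441 array were dim, below the median of their array. Unlike Hmox1, Slc7a11 was low in DMSO 1, so its pair numbered 1 was higher with NU7441, by 0.34, and the difference was -0.97 (SE 0.57).

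Of the peroxidases and glutaredoxins, 8 of 9 were lower, by little, with a median of -0.07. Without DMSO 2, 6 of the 9 were lower, and over the arrays left out in turn the median ran from -0.11 (DMSO 3) to -0.015 (DMSO 2). The iron-sulfur glutaredoxin Glrx3 differed by -0.19 (SE 0.07), Glrx2 by -0.07 (SE 0.08) and Gpx8, a peroxidase of the endoplasmic reticulum, by 0.07 (SE 0.06). Of 12 glutathione S-transferases 7 were lower, with Gsto1 at -0.23 (SE 0.11), Mgst3 at -0.18 (SE 0.12) and Gstk1, a dim probe set at 5.22 in DMSO, at -0.29 (SE 0.11). Thioredoxins, peroxiredoxins and sestrins were split, 4 lower and 6 higher, with Sesn2 at -0.25 (SE 0.20), Sesn3 at 0.09 (SE 0.08) and the peroxiredoxin Prdx4 at -0.06 (SE 0.08). That split moved with the arrays, to 7 of 10 lower without DMSO 1, 6 without DMSO 3 and 2 without DMSO 2.

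Among NADPH sources, the malic enzyme gene Me1 was at 11.13, 10.97 and 11.14 in DMSO and at 10.83, 10.84 and 10.88 in NU7441. Its groups lay apart, with a difference of -0.23 (SE 0.07, unadjusted p = 0.0137 in limma). Pgd, of the pentose phosphate pathway, differed by -0.18 (SE 0.10) and Idh1 by 0.08 (SE 0.07). The superoxide dismutases and catalase gave 1 of 4 lower, with Sod1 at 0.11 (SE 0.07), Sod2 at -0.09 (SE 0.06) and Sod3 at 0.07 (SE 0.11). Without DMSO 3, or without NU7441 2, 2 of the 4 were lower.

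In quinone, carbonyl and epoxide metabolism, 6 of 10 genes were lower. Nqo2, the paralog of Nqo1, and the aldo-keto reductase Akr1b8 both had their groups apart, at -0.24 (SE 0.08) and -0.15 (SE 0.07). The aldehyde dehydrogenase Aldh3a1 differed by 0.30 (SE 0.14), with the groups overlapping.

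Of 9 genes of heme breakdown and iron storage 7 were lower, none by as much as Hmox1, with a median of -0.02. Without DMSO 2, 5 of the 9 were lower. Hmox2, the constitutive heme oxygenase, differed by -0.0057 (SE 0.06), and this gene was added to those named by rule after its value was seen. The biliverdin reductase Blvra differed by 0.13 (SE 0.09) and the heme exporter Flvcr1 by -0.17 (SE 0.08). Tfrc, the transferrin receptor that brings iron into cells, was at 8.81, 8.42 and 8.68 in DMSO and at 8.45, 8.18 and 8.35 in NU7441. It was lower in all 3 pairs, by -0.36, -0.24 and -0.33, while NU7441 1 lay just above DMSO 2. The difference was -0.31 (SE 0.12 without pairs and 0.06 with them), and it did not pass over all genes either way. Of 7 heme synthesis genes 6 were lower, with a median of -0.05, Cpox at -0.17 (SE 0.11), Alas1, the rate-limiting synthase, at -0.10 (SE 0.10) and Fech, which inserts iron, at -0.05 (SE 0.07). For heme synthesis, 4 of 7 were lower without DMSO 2 (median -0.017) and 7 of 7 without DMSO 3 (median -0.11).

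All 12 ATF4 stress genes, 3 of which also stand on lists above, had a lower mean with NU7441, with a median of -0.28. Without DMSO 2, 9 of the 12 were lower (median -0.11), and without DMSO 1 all 12 were (median -0.54). Atf4 differed by -0.25 (SE 0.14), Atf3 by -0.44 (SE 0.25) and Ddit3 by -0.68 (SE 0.39). Their within-pair median was 0.21 in pair 1, -0.62 in pair 2 and -0.40 in pair 3, so pair 1 went the other way, where Hmox1 was lower by -0.61.

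**Figure D4:**
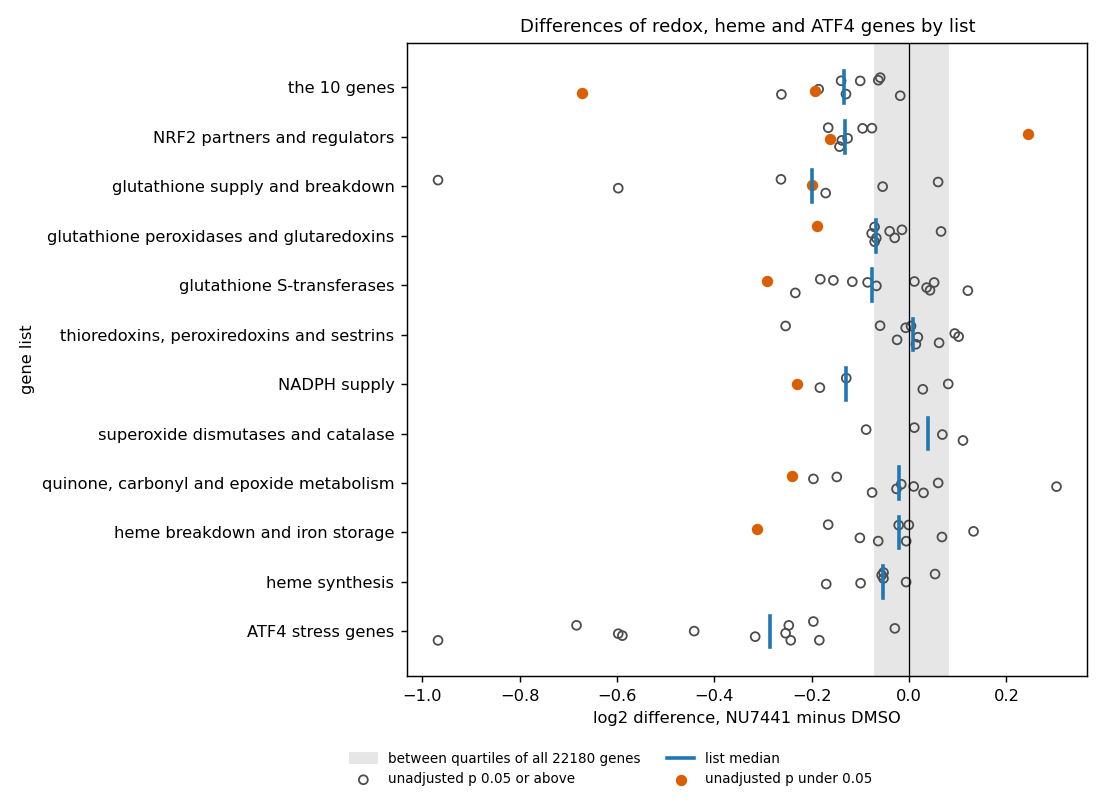
Log2 difference, NU7441 minus DMSO (horizontal axis), of every measured gene by list, with 1 circle a gene, filled where the unadjusted p in limma was under 0.05, and a bar at the list median. The grey band runs between the quartiles of all 22180 genes, from -0.07 to 0.08, and the medians of the 10 genes (-0.13) and of the ATF4 stress genes (-0.28) lie to its left.

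The genes whose signals ran most like Hmox1 over the 6 arrays were Gbe1, Trim30d, Ampd3, Ifi204 and Clec2d. They were the 5 with the highest Pearson correlation among 195 genes of above-median level that ranged over at least 1 log2 unit, with r between 0.959 and 0.974 and Spearman's rho between 0.829 and 1. As the arrays are only 6 and the genes were picked for likeness, these are a description. Gbe1, the glycogen branching enzyme, was at 9.55, 9.84 and 9.26 in DMSO and at 9.08, 9.25 and 8.73 in NU7441, with number 2 the highest and number 3 the lowest of each group as in Hmox1.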

How the data were processed

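Affymetrix arrays of biotin-labelled total RNA gave the data. The deposited values are log2 signals of probe sets, a unit that was read from their range. For background correction and normalization the method is not stated in the labels. Of 41345 probe sets, the platform annotation named 1 gene for 23521, several for 1814 and none for 16010. The single-symbol probe set with the highest mean stood for each gene, giving 22180 genes, and 0 columns of other samples were present.

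Groups came from the treatment labels and replicate numbers from the titles. Limma 3.58.1 in R 4.3.3 (group as the only term, two-sided) was fitted over all genes, with Benjamini-Hochberg adjustment and a threshold of 0.05. It was tested on simulated data. Same-numbered arrays were taken as pairs because every such correlation was over 0.1. The labels themselves do not state a pairing.

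Named genes are the 10, the 3 of smallest p per list, and those most like Hmox1. Members and lists were chosen with earlier results of these data known. The number of arrays limits the precision. Promoter windows were from RefSeq, GRCm38.p6. Windows overlapping on opposite strands were reverse complements in 1683 of 1683 cases. Figures used matplotlib 3.10.9 in Python 3.11.15.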

Additional observations from a re-analysis of the deposited data

How the results depend on the processing

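Under the 16 alternatives listed for the fit, Hmox1, Nfe2l2, Gclm, Gsr, Gsta4 and Keap1 kept their sign. None of the 10 genes was called without the replicate block. The replicate block alone called 0 genes, with 2078 at an unadjusted p under 0.05, and changed no call of the 10. With intensity trend and robust prior as well, the paired fit called 100 genes, Hmox1 among them, with 2483 at an unadjusted p under 0.05. The same fit without both arrays of a number, chosen after seeing the data, called 44 genes (number 1, with 2578 at an unadjusted p under 0.05), 155 (number 2) or 55 (number 3). Without number 2 the difference of Keap1 was 0.0061 and that of Srxn1 0.057. Keeping the upper 50 percent of genes by level left 933 genes at an unadjusted p under 0.05, fewer being tested, and all probe sets gave 2577, more being tested. Leaving out 1 array gave between 1174 and 1746 such genes and called 0. It moved Nqo1 between -0.36 and 0.074, Gclc between -0.24 and 0.024, Srxn1 between -0.11 and 0.13 and Txnrd1 between -0.17 and 0.017. Array weights gave 0.030 for Nqo1 and 0.052 for Srxn1, and quantile normalization 0.0083 for Srxn1. The cause of these changes of sign was not tested. Signal over background was not analysed here.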
